A study of Mus musculus with 6 samples.

Results

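The genes described here are 35 B cell and lymphoid follicle genes, chosen by symbol from the 55385 genes in each expression table, and all 35 were found. They fall into 7 role groups: the antigen receptor and B cell surface, receptor signalling, Fc, IgM and complement receptors, tumor necrosis factor (TNF) receptors with lymphotoxins, transcription factors, plasma cell differentiation, and the vessel addressin Madcam1. RNA was sequenced from mammary tissue of female NeuT/ATTAC mice that developed tumors, in 3 control and 3 DMHCA libraries of 46358735 to 63420673 expected counts each. These mice carry MMTV-NeuT, a constitutively active rat ErbB2[V664E] made in mammary epithelium, and FAT-ATTAC, a caspase-8 fused to FKBPv and expressed from the fat-cell promoter of FABP4. AP20187 is a dimerizer that switches this caspase on in fat cells, and the gland becomes fibrotic as they die. Injections (0.4 mg/kg) began when the mice were 6 weeks old, and such mice serve as a model of tumor growth in a fibrotic gland. The control label reads "AP20187 Vehicle", which can mean AP20187 in its vehicle or the vehicle alone, while the study's text describes tumors of AP20187-treated mice. The DMHCA mice also ate, from 8 weeks of age, a diet with 0.05% DMHCA, a sterol agonist of the liver X receptor, for a dose of 100 mg/kg. Age at collection was not given in the sources used here, and no batch is named in the labels.

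B cells bind antigen through a membrane immunoglobulin that signals by way of its partners Cd79a and Cd79b. In lymphoid tissue, and in the lymphocyte clusters that can form in inflamed organs, B cells gather in follicles, which lymphotoxin from lymphocytes helps to organize and which lymphocytes enter through specialized venules. The mammary gland lies in a fat pad that also holds lymph nodes, and whether a node was present in any of these tissue pieces is not stated in the sources used here.

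Libraries DMHCA 1 and DMHCA 3 were nearly the same. Their biological coefficient of variation was 0.0327, against 0.376 to 0.579 for the other 5 pairs within a group, so their counts were summed and treated as 1 sample. The comparison is therefore of 3 control with 2 DMHCA samples, and its p-values measure the spread between these samples. The epithelial markers Krt18 and Epcam were high in all 5 samples, with Krt18 at 823 to 1750 CPM (counts in each 1000000, scaled by the trimmed mean of M values). Levels between samples are given below as CPM, and levels between genes as TPM (transcripts in each 1000000), which accounts for length.

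Most of these genes were more abundant in 2 of the control tumors than in the remaining control tumor and in both DMHCA samples. Among those tested, Cd72, Blnk, Ralgps2, Bach2, Bcl6 and Prdm1 did not follow this. Control tumor 3 had the highest level of 29 of the 33 members that could be tested, where this was so for 27.9% of all 19535 genes tested, and control tumor 1 came next for most. Cd79a, the signalling partner of membrane immunoglobulin, was at 101.0 CPM in control 3, 9.78 in control 1 and 0.0711 in control 2, beside 0.365 in DMHCA 1 and 3 and 0.241 in DMHCA 2. The DMHCA values therefore lie between the control values for this gene, although the control mean of 36.9 ± 55.5 CPM (SD, n = 3) was far above the DMHCA mean of 0.303 ± 0.0874 (SD, n = 2). In bulk tissue, fewer B cells and less of a transcript per B cell cannot be told apart.

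**Figure D1:**
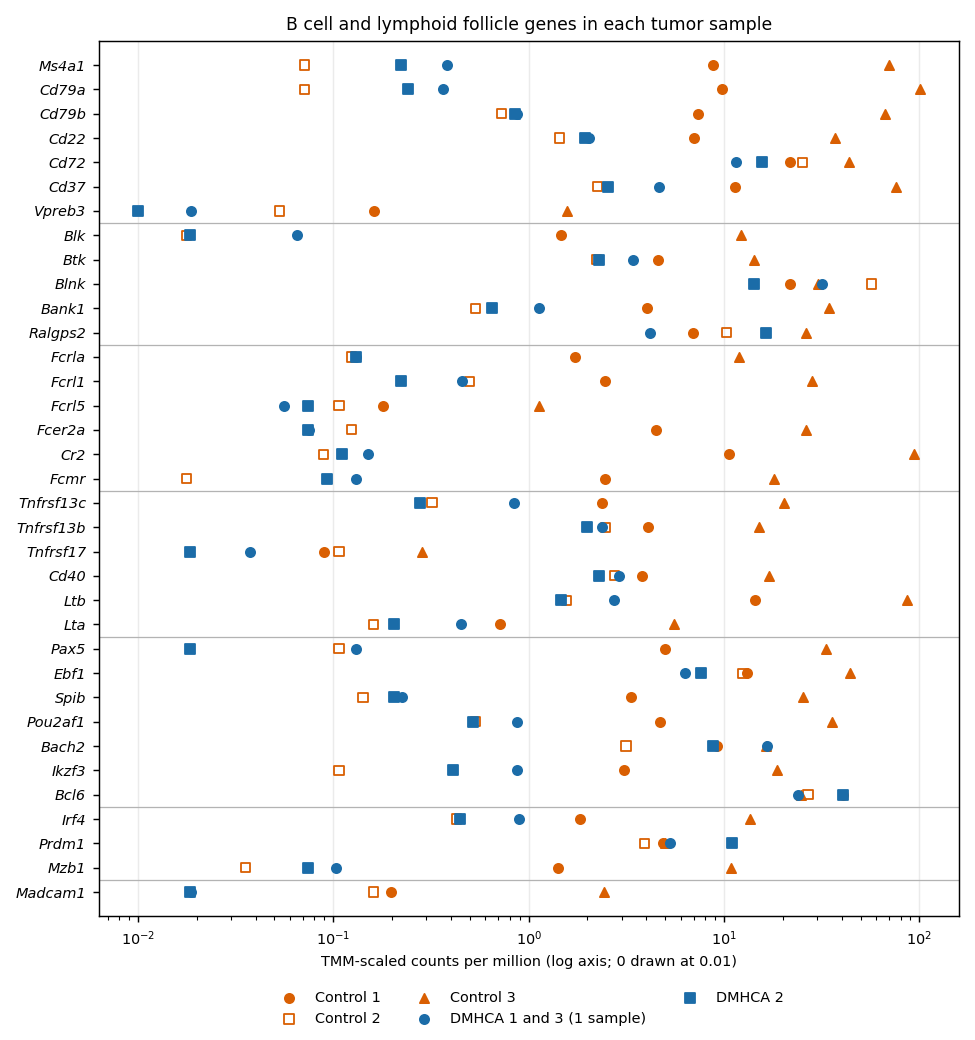
Level of each of the 35 genes in each sample, as CPM on a log axis, with 0 drawn at 0.01 and lines between role groups. Filled orange triangles (control 3) lie farthest right for most genes, and open orange squares (control 2) lie among the blue DMHCA points, as for Cd79a at 0.0711 beside 0.365 and 0.241 CPM.

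The comparison of DMHCA with control asks whether these genes differed in tumors grown under the drug. No gene of any kind passed an adjusted p of 0.05 in edgeR's quasi-likelihood test with Benjamini-Hochberg adjustment (0.0% of 19535 genes, smallest adjusted p 0.648), and 1480 genes had an unadjusted p under 0.05. Adjusted p for the 33 members tested ran from 0.648 to 0.965 in the same edgeR test. Of these members, 30 had a lower mean with DMHCA and 3 a higher one (Bach2, Bcl6 and Prdm1), where 53.2% of all genes were lower. The median log2 fold change of the members was -3.75, beside -0.05 over all genes. An unadjusted p under 0.05 was found for 17 members, all lower with DMHCA, where 4.22% of all genes had this in that direction and 3.36% in the other. A log2 fold change of -2 or below was found for 23 members and for 4.94% of all genes. The filter on low counts shapes these figures: 9 members (Blk, Fcrla, Fcrl5, Fcer2a, Cr2, Fcmr, Pax5, Mzb1 and Madcam1) reached its level of 0.185 CPM in neither DMHCA sample and so were kept through the controls. With no filter, all 35 were fitted, 32 were lower and the median was -3.68.

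The size of this difference rested on control tumor 3. Without it, and with no filter, the median log2 fold change over the 35 genes was -1.32 and 14 had an unadjusted p under 0.05 (5.63% of all genes), an alternative added after the data were seen. With the filter kept, the median was -0.90 and none of the 24 members still tested had such a p. The members kept only through the controls in the main fit were no longer tested. They include Cr2, Pax5 and Fcer2a, which had the largest changes, so the medians of -3.75 and -0.90 cover different genes. Without control 1, 24 members were tested and 9 had an unadjusted p under 0.05, where 6.7% of all genes had one in either direction, and 26 of 32 had one without control 2, the control tumor poor in B cell genes, where 9.4% did. Without DMHCA 2 the DMHCA arm is 1 sample and the spread comes from the controls alone; no member then had such a p, and the median was -3.12. Counting all 6 libraries separately in DESeq2, the tool the study used, gave 21 members an adjusted p under 0.05, all lower, beside 2.95% of all genes lower and 1.44% higher. DESeq2 on the 5 samples gave 7, all lower (Fcrla, Fcrl1, Fcer2a, Cr2, Pax5, Pou2af1 and Madcam1), where 0.956% of all genes were lower and 0.246% higher. Both DESeq2 counts include Fcrla, Fcer2a, Cr2, Pax5 and Madcam1, which reached the filter level in neither DMHCA sample. These counts are therefore a description.

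**Figure D2:**
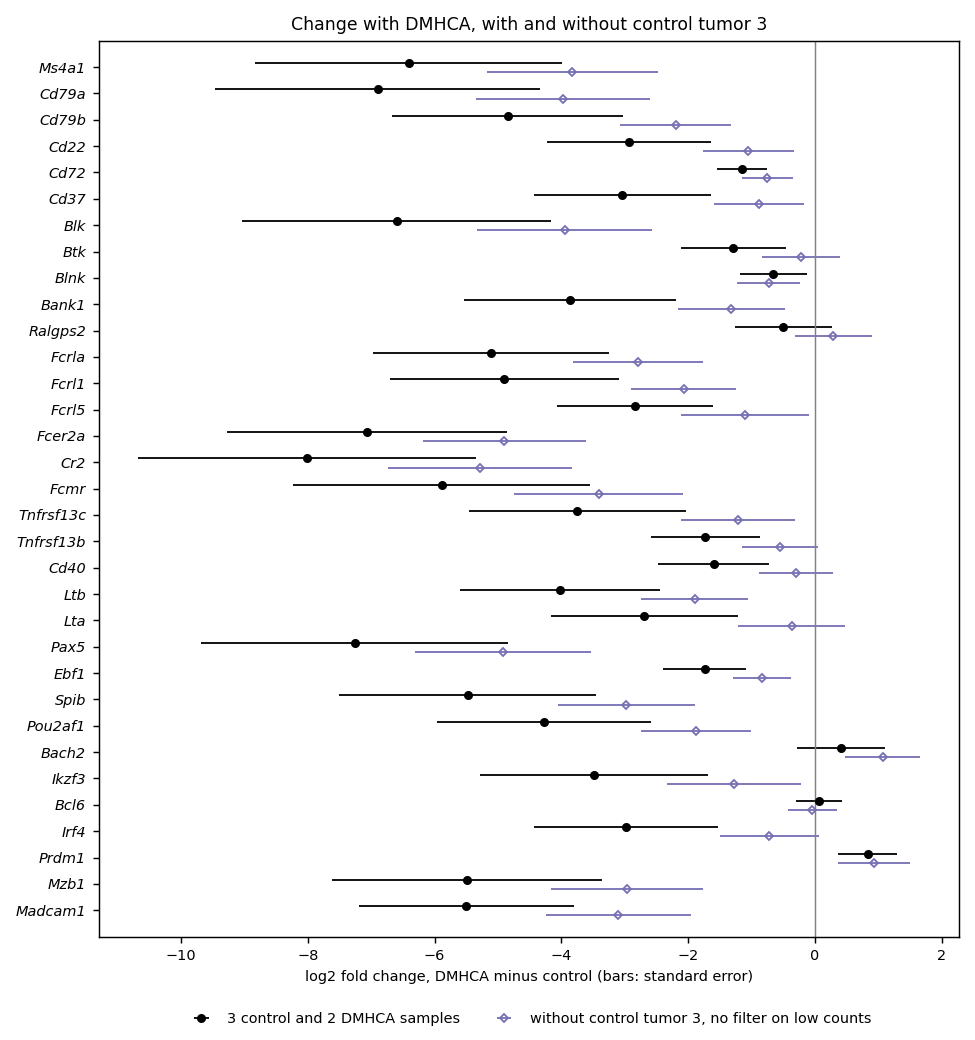
Log2 fold change (DMHCA minus control) of the 33 tested members, with bars for the standard error, from all 5 samples (black circles) and without control tumor 3 and without the filter on low counts (purple diamonds). The purple points lie nearer to 0 for most genes, as for Cd79a at -6.90 and then -3.98, and the median goes from -3.75 over 33 genes to -1.32 over 35.

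The groups were fully apart for 8 of the 33 tested members. All 3 controls lay above both DMHCA samples for Cd72, Fcrl1, Fcrl5, Fcer2a, Tnfrsf13b, Ebf1 and Madcam1, which is 7 of 33 where 12.7% of all genes showed this. Of these, Fcrl5, Fcer2a and Madcam1 were tested only because controls were high, so the count is a description. All controls lay below both DMHCA samples for Prdm1 alone, against 13.1% of all genes. Of the 2 members too low to test, Tnfrsf17 had all controls above both DMHCA samples, and for Vpreb3 control 2, at 3 reads, could not be separated from 0 reads in DMHCA 2. With control 2 left out, 29 members were apart in place of 8, where 42.8% of all genes were apart in place of 25.8%.

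Of the antigen receptor and surface genes, all 6 tested had a lower mean with DMHCA, and 4 of them an unadjusted p under 0.05. Ms4a1 (CD20, a B cell surface protein, chr19:11249675-11266241 in GRCm38) was at 8.83, 0.0711 and 69.9 CPM in controls 1, 2 and 3, and at 0.383 and 0.222 in DMHCA 1 and 3 and DMHCA 2. Control 2 held 4 reads of it, fewer than either DMHCA sample, and its log2 fold change was -6.41 (SE 2.42). Cd79a (chr7:24897381-24902197) gave -6.90 (SE 2.57) from the values above. Its partner Cd79b (chr11:106311341-106314762) was at 7.33, 0.729 and 66.6 CPM in the controls and 0.869 and 0.852 with DMHCA, for a log2 fold change of -4.85 (SE 1.82). These 3 B cell genes thus had the same order of the controls with control 3 on top and control 2 at the bottom.

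Cd72, an inhibitory co-receptor (chr4:43446462-43454628), behaved differently. It was at 21.7, 25.1 and 43.5 CPM in controls 1, 2 and 3 and at 11.5 and 15.6 in the DMHCA samples, so the groups did not overlap, and control 2 was above control 1. The log2 fold change of Cd72 was -1.15 (SE 0.40), and -0.75 without control 3. Reads of Cd72 and of Tesk1, which overlaps it on the other strand, may not be separable, since strand use in counting was not given in the sources used here. Cd37, a tetraspanin of B cells and other leukocytes, was at 11.4, 2.26 and 75.6 CPM in the controls and 4.64 and 2.56 with DMHCA, with control 2 again lowest. The log2 fold change of Cd37, which overlaps Tead2 on the other strand, was -3.04 (SE 1.40), and -0.89 without control 3. Cd22, an inhibitory receptor of the B cell surface, was also lower, at -2.93. Vpreb3, a protein of the developing B cell receptor, was too low to test, with 90 reads over the 3 controls and 2 over the DMHCA libraries, none of them in DMHCA 2, where the limit that 0 reads allows is 0.0556 CPM. Its control to DMHCA ratio was 44.8 with an exact 95% counting interval of 12.0 to 376, which covers counting error only.

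All 5 receptor signalling genes had a lower mean with DMHCA, with log2 fold changes from -6.60 to -0.50. Blnk, the adaptor that links the receptor to its kinases, was at 21.7, 57.0 and 30.2 CPM in the controls and 31.9 and 14.2 with DMHCA, so its highest level was in control 2 and the groups overlapped (log2 fold change -0.66, SE 0.53). Ralgps2, a guanine nucleotide exchange factor for Ral, was at 6.97, 10.3 and 26.3 CPM in the controls and 4.17 and 16.4 with DMHCA. Its log2 fold change of -0.50 (SE 0.77) turned to 0.29 without control 3. By contrast, the B cell tyrosine kinase Blk was at 1.47, 0.0178 and 12.2 CPM in the controls and 0.0654 and 0.0185 with DMHCA, and control 2 held 1 read of it. Neither DMHCA sample reached the filter level for Blk, so its log2 fold change of -6.60 (SE 2.44) is given as a description. The scaffold Bank1 was at 4.02, 0.533 and 34.4 CPM in the controls and 1.13 and 0.648 with DMHCA (log2 fold change -3.86, SE 1.67). The kinase Btk, which myeloid cells also use, had a log2 fold change of -1.29. Of 11 genes of the wider receptor cascade, 10 had a lower mean and none an unadjusted p under 0.05 in edgeR, with a median of -0.68. Of its 2 genes with the highest mean CPM, Plcg2, a phospholipase, ranged from 64.1 to 69.8 CPM, and Ptpn6, a phosphatase of many leukocytes, from 47.2 to 115 CPM.

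All 6 receptors for antibody and complement had a lower mean with DMHCA. For 5 of them (Fcrla, Fcrl5, Fcer2a, Cr2 and Fcmr) neither DMHCA sample reached the filter level, so they were tested only because controls were high, and their values are given as a description. Cr2 (CD21, chr1:195136811-195176716) binds complement fragments on mature B cells and on follicular dendritic cells. It was at 10.6, 0.0889 and 93.3 CPM in the controls and 0.150 and 0.111 with DMHCA, where control 2 held 5 reads. Its log2 fold change of -8.01 (SE 2.67) was the largest of the members, and it was -5.29 without control 3. Fcer2a (CD23, the low-affinity IgE receptor, chr8:3681737-3694175) was at 4.51, 0.124 and 26.3 CPM in the controls and 0.0748 and 0.0741 with DMHCA, so control 2 stood above the DMHCA samples by 7 reads against 4 in DMHCA 2. Fcer2a had a log2 fold change of -7.07 (SE 2.21). Fcrl1, an Fc receptor-like protein of B cells, was at 2.47, 0.498 and 28.1 CPM in the controls and 0.458 and 0.222 with DMHCA (log2 fold change -4.90, SE 1.81). Fcrl5, of the same family, was lowest, at 0.179, 0.107 and 1.13 CPM in the controls and 0.0561 and 0.0741 with DMHCA (log2 fold change -2.84, SE 1.23). For both Fcr-like genes the groups did not overlap, though control 2 held only 6 reads of Fcrl5. The intracellular Fcrla and the IgM receptor Fcmr had log2 fold changes of -5.11 and -5.89.

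Among TNF receptors and lymphotoxins, all 5 tested had a lower mean and 1, Ltb, an unadjusted p under 0.05. Ltb (lymphotoxin beta, chr17:35194439-35196320), a membrane signal for follicle formation, had the highest level per length of all members, with a mean of 27.9 TPM over the 5 samples. It was at 14.4, 1.56 and 86.6 CPM in the controls and 2.73 and 1.46 with DMHCA, so control 2 lay between the DMHCA samples. Ltb had a log2 fold change of -4.02 (SE 1.58). Its partner Lta had -2.69. Cd40, the receptor for T cell help, also found on dendritic cells and macrophages, was at 3.79, 2.75 and 17 CPM in the controls and 2.91 and 2.28 with DMHCA (log2 fold change -1.60, SE 0.88). Tnfrsf13b (TACI), a receptor for the survival factors BAFF and APRIL, was at 4.06, 2.47 and 15.1 CPM in the controls and 2.36 and 2 with DMHCA (log2 fold change -1.73, SE 0.86). For Cd40 and Tnfrsf13b, control 3 stood well above the other 4 samples. The BAFF receptor Tnfrsf13c had -3.75, and Tnfrsf17 (BCMA, found on plasma cells) was too low to test, with at most 0.283 CPM, in control 3.

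Of 7 transcription factors, 5 had a lower mean with DMHCA and 2, Bach2 and Bcl6, a higher one. Pax5, which maintains B cell identity (chr4:44524757-44710487), was at 5.01, 0.107 and 33.2 CPM in the controls and 0.131 and 0.0185 with DMHCA, for a log2 fold change of -7.26 (SE 2.42). Spib, an Ets factor, and Pou2af1, the octamer co-activator, had log2 fold changes of -5.48 and -4.28. These 2 and Ebf1 had an unadjusted p under 0.05, and Pax5 was tested only because controls were high, so its value is a description. Ikzf3 (Aiolos) had -3.49. Ebf1, an early B cell factor that fat-lineage and stromal cells also express, was at 13.1, 12.5 and 44.1 CPM in the controls and 6.31 and 7.62 with DMHCA, so controls 1 and 2 were alike and the groups did not overlap (log2 fold change -1.74, SE 0.65). Bach2, a repressor that holds B cells and T cells from terminal differentiation, was at 9.17, 3.15 and 16.3 CPM in the controls and 16.5 and 8.76 with DMHCA, where DMHCA 1 and 3 matched control 3 (log2 fold change 0.41, SE 0.69). Its sign turned to -0.00093 without control 2. Bcl6, the master regulator of the germinal centre that epithelium also expresses, was at 40.5, 26.9 and 24.8 CPM in the controls and 23.8 and 40.4 with DMHCA. Its log2 fold change was 0.06 (SE 0.36), its sign changed in several alternatives, and control 3 was the lowest control. Of 5 germinal centre genes tested, 3 had a lower mean and 1 an unadjusted p under 0.05, while those with the highest mean CPM, S1pr2 and Mybl1, had 0.01 and 0.77.

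Genes of plasma cell differentiation differed in direction, with 2 of 3 lower. Irf4, a factor of activated lymphocytes and plasma cells, was at 1.84, 0.426 and 13.6 CPM in the controls and 0.888 and 0.445 with DMHCA (log2 fold change -2.98, SE 1.45). Mzb1, a chaperone of antibody secretion, was at 1.41, 0.0355 and 10.9 CPM in the controls and 0.103 and 0.0741 with DMHCA (log2 fold change -5.49, SE 2.13). Neither DMHCA sample reached the filter level for Mzb1, so its fitted value is a description. Its reads in the near-identical libraries were 0 in DMHCA 1 and 11 in DMHCA 3, and it overlaps SPATA24 on the same strand, so the division of reads between them is uncertain. Prdm1 (Blimp-1), which drives antibody secretion and acts in other cells too, was at 4.85, 3.91 and 4.99 CPM in the controls and 5.28 and 11.0 with DMHCA, all DMHCA values being higher. The log2 fold change was 0.83 (SE 0.47), and the lower DMHCA value was close to the highest control. Of 7 other plasma cell genes, 5 had a lower mean and 3 an unadjusted p under 0.05, with a median of -2.87. The 2 with the highest mean CPM, Sdc1, a surface proteoglycan, and Xbp1, a secretory factor, are also made by epithelium and had -1 and 0.01. The antibody genes, named after their values were seen, had larger differences: -4.91 for the light chain Igkc, -2.87 for Ighm, -3.90 for Igha and -4.26 for Jchain, which joins antibody units. Igkc was at 34.4, 2.19 and 246 CPM in the controls and 3.09 and 3.17 with DMHCA, and reads of such gene families can be divided uncertainly.

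Madcam1 (chr10:79664559-79668537), a vessel adhesion molecule that lymphocytes bind, was the only member of its group. It was at 0.197, 0.160 and 2.44 CPM in the controls and 0.0187 and 0.0185 with DMHCA, with no overlap. These are 141 reads over the controls and 3 over the DMHCA libraries, of which control 3 held 121. The ratio was 46.8, with an exact 95% interval of 15.7 to 230 that covers counting error only and not the spread between tumors. Neither DMHCA sample reached the filter level, so its fitted log2 fold change of -5.50 (SE 1.70) is a description. Other genes of high endothelial venules followed the same order of controls: their summed level was 123, 2.21 and 1140 TPM in controls 1, 2 and 3 and 5.41 and 2.98 TPM with DMHCA, and 4 of 4 tested had a lower mean. Glycam1, an L-selectin ligand that milk-producing epithelium also makes, carried most of this, at 37.6, 0.338 and 404 CPM in the controls and 0.748 and 0.537 with DMHCA, and the chemokine-binding Ackr1 had a log2 fold change of -1.10. Of 12 lymphoid organizing genes, 10 had a lower mean and 2, Ccl19 and Cxcl13, an unadjusted p under 0.05, with a median of -2.09. The follicle and T zone chemokines Cxcl13, Ccl19 and Ccl21a and the receptor Ccr7, named after their values were seen, had log2 fold changes of -4.55, -6.56, -4.06 and -4.36. Cxcl13, which draws B cells into follicles, was at 4.40, 1.17 and 78.6 CPM in the controls and 0.879 and 1.52 with DMHCA, so that the groups overlapped. The 2 genes of the list with the highest mean CPM, the lymphotoxin receptor Ltbr and its target Nfkb2, had 0.07 and -0.32.

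To place the levels beside sequence, the 250 bases before the RefSeq start (GRCm38.p6) were searched on both strands in the 29 members that the table held. GAGGAA, the core bound by Spi-B and PU.1, was found in 12 of them (41.4%), where 25.9% of 27025 genes held it. CCCNNGGG, the Ebf1 core, was in 4 (13.8%, against 13.4% of genes), and the octamer ATTTGCAT in 2, Blnk and Vpreb3 (6.9%, against 1.81%). The spaced direct repeat bound by the liver X receptor was in none of these windows and in 0.0148% of genes. No member's window held 2 different words of this search, and each match is a description of letters only. The RefSeq start lay at the GENCODE gene edge for 9 members, and the 120 bases before it are shown for the 5 of these that held a word there. All 5 had the order of controls 3, 1 and 2. Capitals mark CCCNNGGG, or GAGGAA and its complement TTCCTC.
Bank1 promoter, chr3:136326067-136326186, minus strand: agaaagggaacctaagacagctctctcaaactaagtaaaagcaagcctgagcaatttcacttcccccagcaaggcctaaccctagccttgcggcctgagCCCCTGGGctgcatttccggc
Fcrl1 promoter, chr3:87376267-87376386, plus strand: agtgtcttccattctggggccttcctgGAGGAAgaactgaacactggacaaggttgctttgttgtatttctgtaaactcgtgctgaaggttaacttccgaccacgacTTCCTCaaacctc
Fcrla promoter, chr1:170927584-170927703, minus strand: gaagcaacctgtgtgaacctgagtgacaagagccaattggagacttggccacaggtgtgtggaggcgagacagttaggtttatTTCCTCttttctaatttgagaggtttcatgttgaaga
Madcam1 promoter, chr10:79664439-79664558, plus strand: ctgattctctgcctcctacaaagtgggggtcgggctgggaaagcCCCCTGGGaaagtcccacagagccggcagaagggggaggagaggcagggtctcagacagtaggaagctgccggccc
Spib promoter, chr7:44532072-44532191, minus strand: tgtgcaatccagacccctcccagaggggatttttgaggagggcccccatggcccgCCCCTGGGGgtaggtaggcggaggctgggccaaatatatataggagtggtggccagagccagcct

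In Spib the capitals hold 2 overlapping matches, 57 and 56 bases before the start, and Madcam1 and Bank1 held theirs at 68 and 13 bases. Fcrl1 held GAGGAA at 87 bases and its complement at 7 bases, and Fcrla held the complement at 31 bases. Spib is itself among the members that were high in controls 3 and 1.

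Most members had the same order of the 3 controls, and fewer had the same order of all 5 samples. Control 3 was above control 1, and control 1 above control 2, for 29 of 33 members, where 27.0% of all genes had this order. The commonest full order, control 3, control 1, DMHCA 1 and 3, DMHCA 2, control 2, was that of 16 members and of 2.89% of all genes. Control 2 was the lowest of the 5 samples for 18 members (24.2% of all genes) and lay below at least 1 DMHCA sample for 25 (63.7%). Controls 1 and 3 both exceeded both DMHCA samples for 28 members (22.3%). The level in control 3 was at least 4 times that in control 1 for 24 members, with ratios of 4.5 to 12.4, where 4.97% of all genes reached 4. The other 9 (Cd72, Btk, Blnk, Ralgps2, Tnfrsf13b, Ebf1, Bach2, Bcl6 and Prdm1) had ratios of 0.614 to 3.77. The median ratio of control 3 to control 2 was 55.4, against 0.994 over all genes. The DMHCA samples were within 2-fold of each other for 24 members, as for 76.9% of all genes. With 5 samples no correlation across samples was computed.

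**Figure D3:**
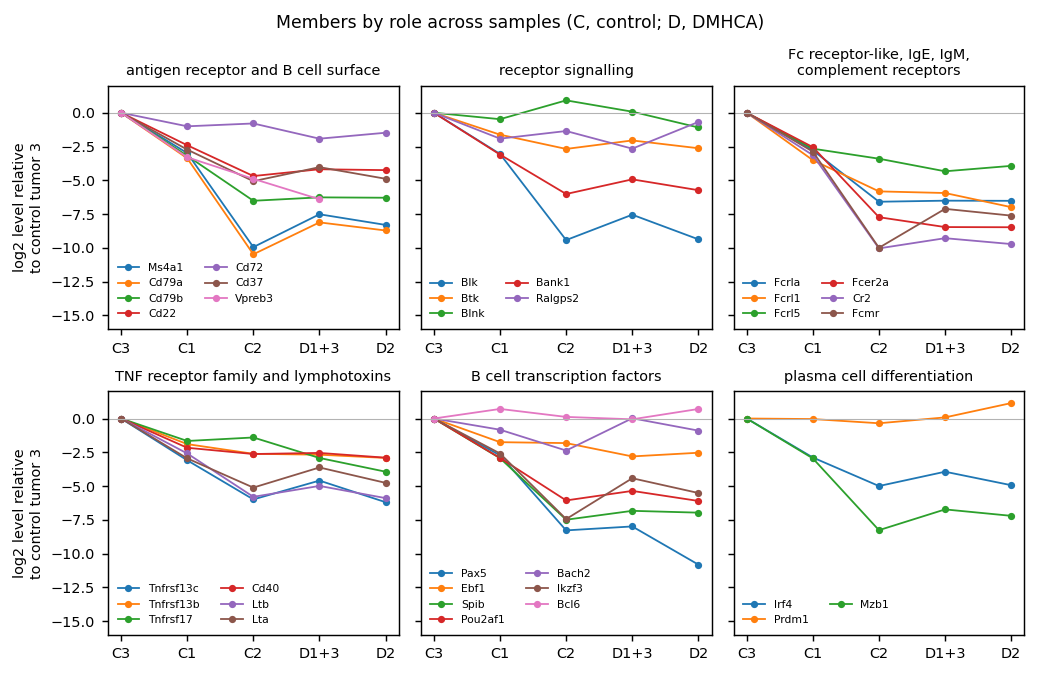
Log2 level of each member relative to its level in control tumor 3, in 6 panels by role, for controls (C) and DMHCA samples (D). Samples were put in this order after the levels were seen, a value of 0 (Vpreb3 in D2) is not drawn and Madcam1 is left out; most lines drop from C3 to C1 and again to C2, while those of Blnk, Bcl6 and Prdm1 stay near 0.

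Levels per length ordered the members differently in the groups. Over the 5 samples Ltb (27.9 TPM), Cd72 (26.1), Cd79a (22.6), Blnk (21.5), Cd37 (20.6) and Cd79b (19.4) had the highest means, and Tnfrsf17 (0.212) and Fcrl5 (0.171) the lowest. In the DMHCA samples the mean was 18.2 TPM for Blnk, 15.8 for Cd72 and 13.9 for Bcl6, beside 0.333 for Cd79a. For those 6 highest genes, neighbours in the order differed by less than the spread between the controls.

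Markers of other cells moved with the B cell genes, and their part in the result was not tested. All 11 T cell genes had a lower mean with DMHCA, 4 at an unadjusted p under 0.05, and their summed level was 48.5, 9.15 and 447 TPM in controls 1, 2 and 3 and 17.1 and 11.5 with DMHCA. Those with the highest mean CPM, the receptor constant gene Trbc2 and the kinase Lck, had log2 fold changes of -4.94 and -2.94. Ms4a1, Cd79a and Cd79b together were at 25.1, 0.83 and 217 TPM in the controls and 1.71 and 1.66 with DMHCA. Their ratio to the T cell sum was 0.518, 0.0907 and 0.485 in the controls 0.1 and 0.145 with DMHCA, so controls 1 and 3 had more B cell transcript per T cell transcript than the other samples. Relative to the pan-leukocyte gene Ptprc, which had a log2 fold change of -1.73, the ratio was 1.20, 0.107 and 2.98 in the controls and 0.149 and 0.145 with DMHCA. Of 10 other B cell genes, all had a lower mean, with a median of -1.54. An unadjusted p under 0.05 in edgeR was found for 8 (4.22% of all genes, lower), and 7 had all controls above DMHCA (12.7%). Both counts include Cxcr5, at 0.168 and 0.0185 CPM with DMHCA, under the filter level of 0.185 CPM. Of the 10, those with the highest mean CPM were Cd74, the invariant chain of antigen presentation, at -1.56, and the inhibitory Fc receptor Fcgr2b at -0.55. Both are also made by myeloid cells.

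Fat markers were also highest in control 3. All 5 adipocyte genes had a lower mean with DMHCA, an unadjusted p under 0.05 and no overlap, and their sum was 203, 123 and 914 TPM in controls 1, 2 and 3 and 68.7 and 68.8 with DMHCA. Adipoq and Fabp4, fat-cell products, had log2 fold changes of -5.00 and -2.59. Myeloid genes had 5 of 7 lower and none at an unadjusted p under 0.05 in edgeR, with sums of 664, 434 and 1500 TPM in controls 1, 2 and 3 and 564 and 465 with DMHCA, and Lyz2 and Csf1r at -1.10 and -0.22. All 6 dendritic cell genes were lower, 2 with an unadjusted p under 0.05, with sums of 15.2, 9.36 and 25.4 TPM in the controls and 10.2 and 8.56 with DMHCA, and Itgax and Zbtb46 at -0.70 and -0.38. Fibroblast genes had 3 of 5 lower, at 482, 180 and 792 TPM in the controls and 343 and 402 with DMHCA (Col1a2 -0.06, Col1a1 0.28). Dcn, a matrix proteoglycan named after its values were seen, was at 134, 83.3 and 638 CPM in the controls. With DMHCA it was at 116 and 48.3 CPM (log2 fold change -1.80), and so it was highest in control 3. There Dcn made up 521 of the 792 TPM of the fibroblast list. Col1a1 and Col1a2 were instead highest in control 1, and Pdgfrb in DMHCA 2. The epithelial list, 3 of 6 lower, divided. Its sum was 3880, 3370 and 2660 TPM in controls 1, 2 and 3 and 4710 and 4570 with DMHCA, made up mostly of Krt8, Krt18, Epcam and Erbb2 (Krt18 0.38, Epcam -0.14). Its basal keratins, named after their values were seen, ran with the B cell genes: Krt5 was at 4.04, 0.995 and 22.3 CPM in the controls and 2.44 and 0.13 with DMHCA, and Krt14 at 4.36, 0.426 and 23.7 in the controls and 2.77 and 0.13 with DMHCA (log2 fold changes -2.81 and -2.70, neither at an unadjusted p under 0.05). Proliferation genes were lowest in control 3, at 224, 291 and 129 TPM in the controls and 351 and 423 with DMHCA, and all 4 had a higher mean (Mki67 1.42, Top2a 0.57). Endothelial genes had 4 of 5 higher, at 28.0 to 48.9 TPM in the controls and 48.5 and 51.2 with DMHCA (Cdh5 0.80, Pecam1 -0.10). Of the 5 samples, control tumor 3 thus had the highest sum for the B cell, T cell, venule, fat, myeloid, dendritic cell and fibroblast lists. Its sum was the lowest for the epithelial and proliferation lists. In control 3, Lyz2 made up 1340 of the 1500 TPM of the myeloid list, and Dcn most of the fibroblast list. By gene, 5 of 7 myeloid and 2 of 5 fibroblast genes were highest in control 3.

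**Figure D4:**
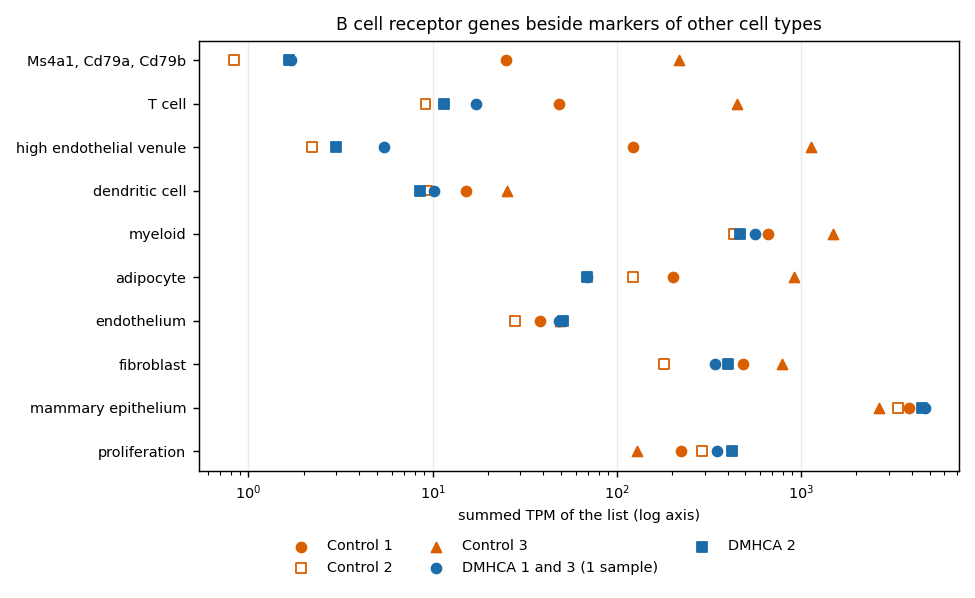
Summed TPM of Ms4a1, Cd79a and Cd79b and of marker lists of other cells in each sample, on a log axis. Control 3 (triangles) is farthest right for the B cell, T cell, venule and fat genes, at 217, 447, 1140 and 914 TPM, and for the myeloid, dendritic cell and fibroblast lists, at 1500, 25.4 and 792 TPM, and farthest left for the epithelial and proliferation lists, at 2660 and 129 TPM.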

How the data were processed

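The deposited tables held, for each of 6 libraries, RSEM expected counts, TPM and FPKM per gene; expected counts and TPM were used. Per the labels the authors extracted RNA from pulverized snap-frozen tissue, and their processing notes list FastQC 0.11.9, cutadapt 2.9, Bowtie2 2.4.1, RSEM 1.3.1 and build mm10. Expected counts share out reads that match several genes (19.6% to 23.5% of all values, zeros included, were not whole). They were rounded to whole numbers here. Totals of 46358735 to 63420673 per library limit precision for members with a few reads.

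DMHCA 1 and 3 were summed because their biological coefficient of variation (0.0327) was under 0.1 and over 5 times below every other pair within a group; 18.1% of genes differed beyond sampling noise between them, against 82.1% to 87.8% in the other pairs. The main test was edgeR 4.0.16 (R 4.3.3; TMM, filterByExpr, quasi-likelihood F-test, two-sided) over all 19535 genes that passed the filter (minimum count 10, total 15), with Benjamini-Hochberg adjustment. It was tested on simulated data. Alternatives were DESeq2 1.42.0 on 5 samples and on 6 libraries (the study's design), edgeR on 6 libraries with and without replicate number as a block, DESeq2 size factors, no filter, limma 3.58.1 on log2(TPM + 1) and leaving out each library. The labels give replicate numbers, but same-numbered libraries did not deviate together in every pair (correlations -0.05, 0.34 and 0.355), so numbers were not used to pair samples.

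The members, role groups and marker lists were chosen with earlier results of these data known. Values in every sample are given for the 3 members of each role group with the highest mean, those with the largest and smallest fold change, those opposite in sign to the median, and a few more members chosen for their role. From each other list the 2 genes with the highest mean CPM, which does not account for length, are named, with some others picked once their levels were known, as stated beside them. Gene positions follow the GENCODE identifiers on GRCm38, and promoters the RefSeq table. Figures were drawn with matplotlib 3.10.9.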

Additional observations from a re-analysis of the deposited data

How the results depend on the processing

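The lower mean of B cell genes with DMHCA rests on few samples, and the number of members past a threshold moved with the method. In place of 0 members at an adjusted p under 0.05, DESeq2 gave 7 on the 5 samples and 21 on the 6 libraries. Both counts include members that reached the filter level in neither DMHCA sample. In place of 17 members at an unadjusted p under 0.05, DESeq2 gave 26 and 28 (6.69% and 10.3% of all genes) and edgeR with no filter 28 (7.93%), beside 7.58% with the filter. On 6 libraries edgeR gave 16 of 25 tested (15.6% of all genes, median -2.92), and with the replicate block 4 of 25 where 17.2% of all genes had such a p (median -1.67), which is no more than the background. Limma on log2(TPM + 1) gave 0 (7.24% of all genes), with a member median of -1.39 in place of -3.75 and the median of all genes at 0.11 in place of -0.05. Leaving out 1 library gave 0 to 26 such members (0 without control 3, 26 without control 2, and 0 without DMHCA 2, where the DMHCA arm is 1 sample assumed to vary like the controls and the median stayed at -3.12), and a median log2 fold change of -4.36 to -0.90. Without control 1 or control 3, 8 of 33 members had no overlap, where 37.1% and 34.4% of all genes had none. Without control 2, 29 members had none, where 42.8% of all genes did. The 6 libraries taken separately gave 6, and the share over all genes was not taken for them. The cause of these differences was not tested. Replicate numbers were not used to pair the libraries, as control 3 deviated with DMHCA 3 (0.355) and DMHCA 1 (0.341) alike. Since those 2 DMHCA libraries were nearly the same, this check could not decide whether the numbers mark pairs. Of 986 alternative values for 73 named genes, 900 held their direction and side of the threshold, 43 passed it only in the alternative and 43 turned sign.

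Members that turned sign were Ralgps2 (-0.50, and -1.75 to 0.25 over left-out libraries), Bach2 (0.41, and -0.00093 to 1.03) and Bcl6 (0.06, and -0.33 to 0.32). Bcl6 was also at -0.05 in DESeq2 on 6 libraries, -0.07 in edgeR on them and -0.08 with the replicate block. Without control 3 and with no filter, a setting chosen after seeing the data, Ralgps2 was at 0.29, Bcl6 at -0.04, Col1a2 at 0.05, Plcg2 at 0.05, Ltbr at -0.11, Pecam1 at 0.20 and Zbtb46 at 0.24. In limma on TPM, Epcam was at 0.13, Col1a2 at 0.18, Plcg2 at 0.20 and Pecam1 at 0.11. Plcg2 was also at 0.03 in both DESeq2 fits and with no filter, at 0.0017 and 0.0027 in edgeR on 6 libraries without and with the block, and at 0.0026 with DESeq2 size factors. Over left-out libraries, Epcam ran from -0.34 to 0.10, Xbp1 from -0.15 to 0.46, Col1a2 from -0.26 to 0.10, Col1a1 from -0.03 to 0.71, Csf1r from -0.30 to 0.05, Plcg2 from -0.04 to 0.08, Ltbr from -0.15 to 0.22, S1pr2 from -0.05 to 0.48, Pecam1 from -0.24 to 0.16 and Zbtb46 from -0.69 to 0.20.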
